A study of Mus musculus with 2197 samples.

Results

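Cells of the Pdx1-Cre lineage of the mouse pancreas were compared between embryonic days E12.5 and E13.5. The members are the single cells whose titles carry Pdx1Cre with E12.5 or E13.5: 239 of the 604 cells of this lineage in 6 days of sampling, and of the 2195 Smart-seq2 cells and 2197 samples of the series. The E12.5 group holds 131 cells in 4 sets of 40, 7, 48 and 36 cells, and the E13.5 group holds 108 cells in 4 sets of 32, 32, 20 and 24 cells. All cells of both groups were Pdx1-Cre;Rosa-RFP+ cells sorted from dissociated pancreas, so they share the Cre driver, the reporter and the sort, and differ in embryonic age. The reporter marks cells in which Pdx1-Cre has acted and all their descendants, whatever they express at the time of the sort. The labels of both groups name no treatment, and no Cre-negative group belongs to this comparison. Smart-seq2 makes cDNA from whole transcripts of 1 cell in a plate well and counts reads, without molecular identifiers. A set is the first number in a cell's title; the labels do not say whether it is an embryo, a litter or a plate, so the p-values below cover how sets vary, and that variation may be technical.

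The Pdx1 domain of the foregut endoderm forms the pancreatic bud, whose multipotent epithelium first grows and then resolves into tips, which become acini, and a trunk, which gives ducts and endocrine cells. Around these days the secondary transition begins: Neurog3-expressing endocrine progenitors leave the trunk in a large wave, after a first and small wave of mainly glucagon cells, and tips start to make digestive enzymes. Neurog3, a basic helix-loop-helix factor, is required for the endocrine lineage and is expressed for a short time. Neurod1, Pax4 and Fev follow it, and granule proteins such as chromogranins and hormones come later.

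Most cells carried the markers of pancreatic epithelium, and some did not. A gene was counted as present in a cell at 100 CPM or more, where CPM is its count scaled to 1e+06 gene counts in the cell. Of 5 epithelial markers (Pdx1, Epcam, Cdh1, Krt8 and Krt18), 22 of 239 cells had none, 7 at E12.5 (4, 0, 1 and 2 by set) and 15 at E13.5 (4, 7, 1 and 3 by set). These cells carried neuronal genes: Gap43, a growth cone protein, was in 22 and Elavl4 in 20. One E12.5 cell had 7 of 8 erythroid markers, with the embryonic globin Hbb-y at 338153 CPM. One E13.5 cell had 4 of 8 liver markers but also Gcg at 188380 CPM and 8 of 16 endocrine markers, and supplied 93.7% of its set's Gcg counts. Results are therefore also given for the 215 cells (123 and 92) that had epithelial markers and fewer than 4 markers of any other type, called epithelial cells below. Over sets, the summed level of 8 mesenchymal markers ranged from 30.6 to 79.1 CPM at E12.5 and from 29.2 to 199.9 CPM at E13.5, that of 8 neural and glial markers from 0 to 62.5 and from 7.29 to 143.1 CPM, and that of 8 liver markers from 186.5 to 308.3 and from 15.4 to 371.9 CPM. The 8 erythroid markers summed to 0.606 to 10384 CPM at E12.5 and 1.81 to 37.8 CPM at E13.5. The 8 endothelial markers summed to 27.6 to 42.1 and 20.6 to 58.2 CPM, and 2 of them, Cdh5 and Kdr, were at 0 in every set.

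Depth differed with age. The median cell had 526643 gene counts and 7586 genes detected at E12.5, against 969605 counts and 8392.5 genes at E13.5. Set totals ran from 3287202 counts, in E12.5 set 2 with its 7 cells, to 37123945. The depth of E12.5 set 1, a median of 915339 counts a cell, was near that of the E13.5 sets. ERCC spike-ins, RNA added to the samples, made up 2.93, 2.56, 2.77 and 0.928% of counts in E12.5 sets 1 to 4. In E13.5 sets 1 to 4 they made up 4.49, 4.47, 4.46 and 4.91%. This share thus differed along with age, without overlap, and its part in the differences was not tested. With every cell thinned to 300000 counts, edgeR again called 0 genes between the days and no share of cells passed after adjustment. Both outcomes were the same without thinning, so they do not measure what depth did. The part of depth in the differences was not tested.

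Counts were summed over the cells of each set and tested with edgeR's quasi-likelihood method over all genes that passed a filter on low counts. Between the days no gene passed an adjusted p of 0.05: 0 of 14876 (0%) in all cells, where 664 genes were higher and 852 lower at an unadjusted p under 0.05 and the smallest adjusted p was 0.25. DESeq2, run as an alternative on 16078 genes, called 257 (1.60%) higher and 228 (1.42%) lower at E13.5. Without E13.5 set 3 edgeR called 9 genes, and without each other set 0. As a description, every E13.5 set was above every E12.5 set for 499 genes (3.35%) and below for 525 (3.53%). In epithelial cells edgeR again called 0 (705 higher and 698 lower at an unadjusted p under 0.05), the sets did not overlap for 551 genes (3.81%) higher and 428 (2.96%) lower of 14463, and DESeq2 called 204 (1.30%) and 174 (1.11%) of 15666. The differences below are therefore sizes with their errors, not calls. DESeq2 values are those of the alternative tool, and edgeR did not call these genes. They are log2 of E13.5 over E12.5, over normalized sums.

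More of the cells were endocrine at E13.5. A cell was put in the endocrine class when 3 or more of 16 markers (among them Neurog3, Pax4, Neurod1, Insm1, Chga, Chgb, Pax6, Isl1, Rfx6, Fev, Gcg, Ins1, Ins2 and Ghrl) reached 100 CPM and it had fewer than 4 markers of another type. This class held 5 of 40, 1 of 7, 8 of 48 and 7 of 36 cells in E12.5 sets 1 to 4, and 10 of 32, 17 of 32, 4 of 20 and 11 of 24 cells in E13.5 sets 1 to 4. The lowest E13.5 set, set 3, was just above the highest E12.5 set, set 4. The mean share was 15.7% ± 3.01 (SD, n = 4 sets) at E12.5 and 37.5% ± 14.8 (SD, n = 4 sets) at E13.5, a difference of 21.8 percentage points (two-sided exact permutation p = 0.0286, the smallest that 4 against 4 sets allow, and 0.0857 after Benjamini-Hochberg adjustment over 3 classes). In epithelial cells the means were 16.55% and 40.7%, or 21 of 123 and 38 of 92 cells. Of the 42 class cells at E13.5, 4 lacked epithelial markers. Gcg was low but above 0 in every cell of E13.5 set 2, with 34.47 to 152.0 CPM in the 15 cells outside the class, 5 of them at 100 CPM or more, against 0 such cells in each other set. With Gcg left out of the markers, set 2 held 15 class cells of 32 in place of 17, every other set kept its count, and the E13.5 mean was 35.99%. The threshold divided few cells at E12.5, where 4 cells had 2 markers and 0 had 3. It divided more at E13.5, where 11 had 2 and 4 had 3. Cells called without endocrine markers below had fewer than 3 of the 16, so cells with 1 or 2 are among them. Likewise, cells without other-type markers had fewer than 4 of any other type. Of Neurog3-positive cells, 3 of 10 at E12.5 and 17 of 26 at E13.5 were epithelial cells of the class.

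Several single endocrine genes were also present in a larger share of cells in every E13.5 set. Neurog3 reached 100 CPM in 0, 0, 10.42 and 13.9% of cells of the E12.5 sets and in 25, 31.3, 15 and 20.8% of those of the E13.5 sets, 10 of 131 against 26 of 108 cells. The days did not overlap (exact permutation p = 0.0286, adjusted 0.171 over 24 genes). Fev, an ETS-family transcription factor that follows Neurog3, was present in 5.00, 0, 2.08 and 8.33% of cells at E12.5 and in 15.6, 21.9, 15 and 33.3% at E13.5, again without overlap and with the same p-values. Neurod1, a target of Neurog3, was present in 19 of 131 and 36 of 108 cells, a mean of 14.6% and 32.6% over sets. The lowest E13.5 set, set 3, lay just above the highest E12.5 set. Chga, chromogranin A, had means of 16.3% and 35.0% (exact permutation p = 0.114, adjusted 0.305) with set 3 of E13.5 at 15%, inside the E12.5 range. Ins1 and Ghrl went the other way, with means of 6.56% and 4.90% and of 2.47% and 1.56%, and Ins2 had 0.694% and 3.07%. None of the 24 genes passed after adjustment. The smallest p of 4 against 4 sets is 0.0286, so an adjusted p under 0.05 needs most of the genes at that value. The same holds for the 3 classes and for the 4 pairs below, so not passing says little here.

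**Figure D1:**
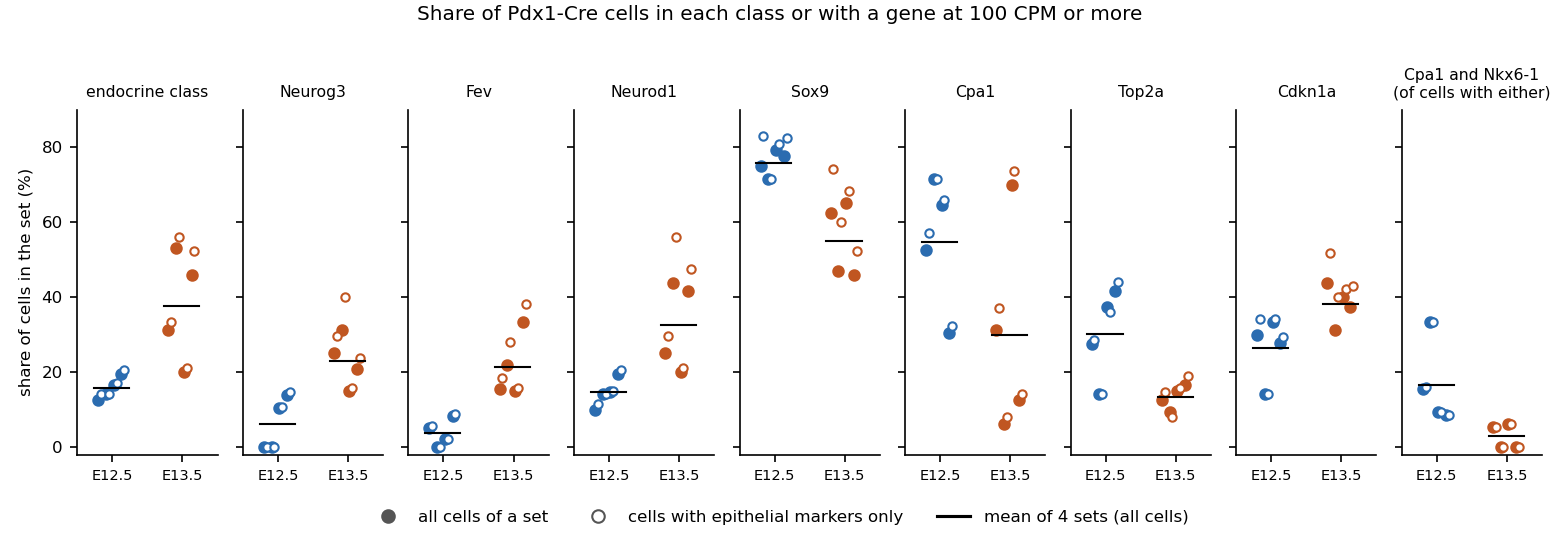
Share of cells (%) per set for the endocrine class, for 7 genes at 100 CPM or more, and for cells with both Cpa1 and Nkx6-1 among cells with either; each point is 1 set, with E12.5 and E13.5 side by side, filled for all cells and open for epithelial cells, and lines mark the mean of 4 sets. The filled Neurog3 points lie between 0 and 13.9% at E12.5 and between 15 and 31.3% at E13.5, and the filled Sox9 points between 71.4 and 79.2% and between 45.8 and 65%.

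The cells of the class were also divided by the endocrine genes they carried. Of the 21 epithelial class cells at E12.5, 3 had Neurog3, 5 had Fev without Neurog3, 12 had Gcg (glucagon, the alpha cell hormone) at 1000 CPM or more without either gene, and 1 had none of these. Of the 38 at E13.5, these counts were 17, 12, 3 and 6. All 3 Neurog3-positive class cells at E12.5 came from set 4, and the other sets had 0 of 14, while each E13.5 set held at least 1 (4 of 9, 9 of 14, 1 of 4 and 3 of 11). Gcg at 1000 CPM or more was found in 15 of 21 class cells at E12.5 and 8 of 38 at E13.5. With the cells of other-type markers counted, including the Gcg-rich cell with liver markers, these were 15 of 22 and 9 of 39. Pax4, a factor that favours the beta and delta fates, was in 4 of 21 and 20 of 38 cells, and Cryba2, a crystallin gene of endocrine precursors, in 5 of 21 and 20 of 38. Ins2 was in 1 and 3 cells. These are counts of cells that share sets, and their difference between days was not tested.

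**Figure D2:**
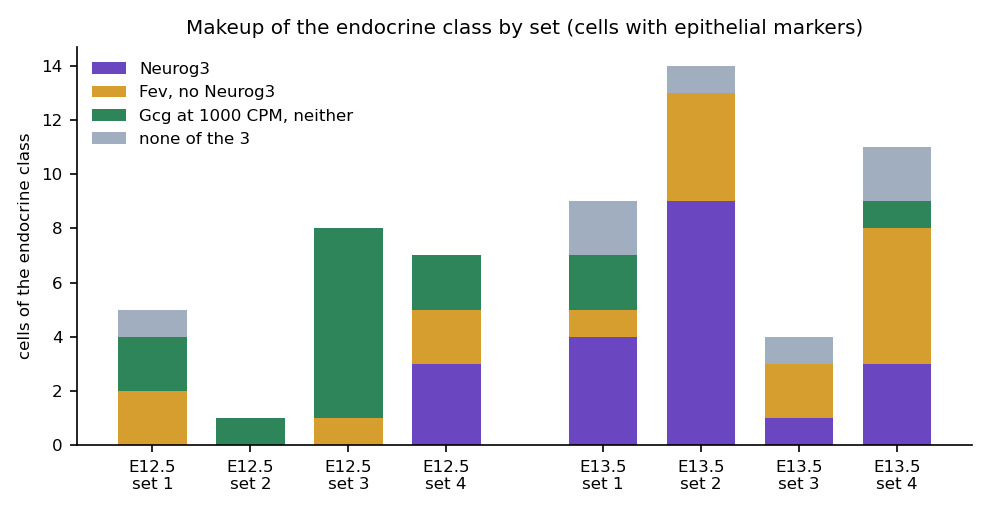
Number of epithelial cells of the endocrine class in each set (y axis, cells), divided into cells with Neurog3, cells with Fev but not Neurog3, cells with Gcg at 1000 CPM or more but neither, and the rest. Gcg cells without Neurog3 or Fev make up 7 of 8 in E12.5 set 3, and Neurog3 cells make up 9 of 14 in E13.5 set 2.

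Many Neurog3-positive cells also had Sox9 or Cdkn1a. Sox9, a factor of the trunk and of bipotent progenitors, was at 100 CPM or more in 8 of 10 Neurog3-positive cells at E12.5 and 14 of 26 at E13.5. Cdkn1a, which encodes the cyclin-dependent kinase inhibitor p21, was in 6 of 10 and 18 of 26 of them. Fev was in 1 of 10 and 11 of 26. Most cells with the tip gene Cpa1 had Sox9 too, as given below, so Sox9 by itself does not mark trunk cells here.

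In the sums, Neurog3 (chr10:62133090-62134763, plus strand, GRCm38) stood at 7.11, 0.909, 58.3 and 162.9 CPM in E12.5 sets 1 to 4 and at 84.8, 913.0, 171.1 and 169.6 CPM in E13.5. The ranges overlapped, and the log2 difference was 2.53 (SE 1.17; edgeR adjusted p = 0.498). Fev was at 7.68, 16.7, 8.14 and 58.8 CPM and then 148.7, 200.7, 27.8 and 145.2 CPM, overlapping through E13.5 set 3 (log2 difference 2.51, SE 0.75; DESeq2 adjusted p = 0.0279). A sum does not separate the number of cells with a gene from the level in each, which is why shares are given beside it.

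Some endocrine genes did not overlap between the days. Cck, the cholecystokinin gene, stood at 75.6, 53.7, 42.9 and 128.3 CPM at E12.5 and at 239.1, 485.8, 235.3 and 420.1 CPM at E13.5 (log2 difference 2.20, SE 0.38; edgeR adjusted p = 0.25, DESeq2 adjusted p = 4.7e-05). Runx1t1, a transcriptional corepressor gene, stood at 34.3, 35.5, 25.3 and 26.5 CPM and then 115.7, 135.7, 50.1 and 177.4 CPM (1.98, SE 0.35). Every E13.5 set was above every E12.5 set for both genes. Cryba2 was at 14.9, 20.01, 6.51 and 27.1 CPM and then 28.1, 136.0, 45.2 and 125.6 CPM (2.30, SE 0.58), with E13.5 set 1 just above E12.5 set 4. Pcsk1, the prohormone convertase of secretory granules, was at 12.9, 64.6, 37.3 and 72.5 CPM and then 127.5, 146.7, 100.2 and 214.7 CPM (1.66, SE 0.47). In the epithelial class cells Cck was present in 17 of 21 and 32 of 38, with median levels of 205.3 and 573.9 CPM. Chgb, chromogranin B, had a median of 930.2 CPM in the class at E12.5 and 9363 CPM at E13.5; its set sums overlapped.

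As lists, the 18 tested endocrine progenitor genes included 3 with every E13.5 set above every E12.5 set (Nkx2-2, Cdkn1a and Lhx1) against 3.35% of all genes, and 16 had a positive difference, with a median of 1.62 beside 0.02 for all genes. The 9 late endocrine precursor genes had 2 non-overlapping and 4 DESeq2 calls, all higher, and a median of 1.98. Of all its genes, DESeq2 called 1.60% higher. The 17 granule genes had 3 non-overlapping, 3 DESeq2 calls and 16 positive differences, with a median of 0.97. In epithelial cells the medians were 1.86, 2.14 and 1.12. Alpha cell genes, 11 tested, had none that did not overlap and a median of 0.33. Neurons also use many granule genes, and the cells without epithelial markers enter the sums of all cells. Snap25, a gene of vesicle fusion chosen after its values were seen, was present in 17 of those 22 cells, and its difference was 2.66 (SE 0.46) in all cells and 1.57 (SE 0.51) in epithelial cells.

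Gcg and Ppy had negative differences. Gcg stood at 4451, 7114, 10210 and 5293 CPM at E12.5 and at 5504, 738.7, 5362 and 1347 CPM at E13.5 (log2 difference -1.06, SE 0.58, overlapping), and the cell with liver markers supplied most of the E13.5 set 1 value. In epithelial cells, which leave that cell out, set 1 was at 408.6 CPM and the difference was -1.71 (SE 0.65), still overlapping. Ppy, pancreatic polypeptide, was at 45.3, 212.2, 70.5 and 41.1 CPM and then 22.7, 1.82, 1.11 and 7.22 CPM (-3.47, SE 0.95), without overlap in all cells. The cell with erythroid markers supplied 87.9% of the Ppy counts of E12.5 set 1, and the cell with liver markers 66.1% of those of E13.5 set 1. In epithelial cells, which leave both out, these sets were at 6.02 and 9.14 CPM, and the days overlapped (-3.98, SE 1.01). In the class, Ppy was in 5 of 21 cells and 1 of 38. Of the 11 hormone genes tested, Cck was the only one higher without overlap (background 3.35%) and Ppy the only one lower (background 3.53%). The median was 1.08.

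**Figure D3:**
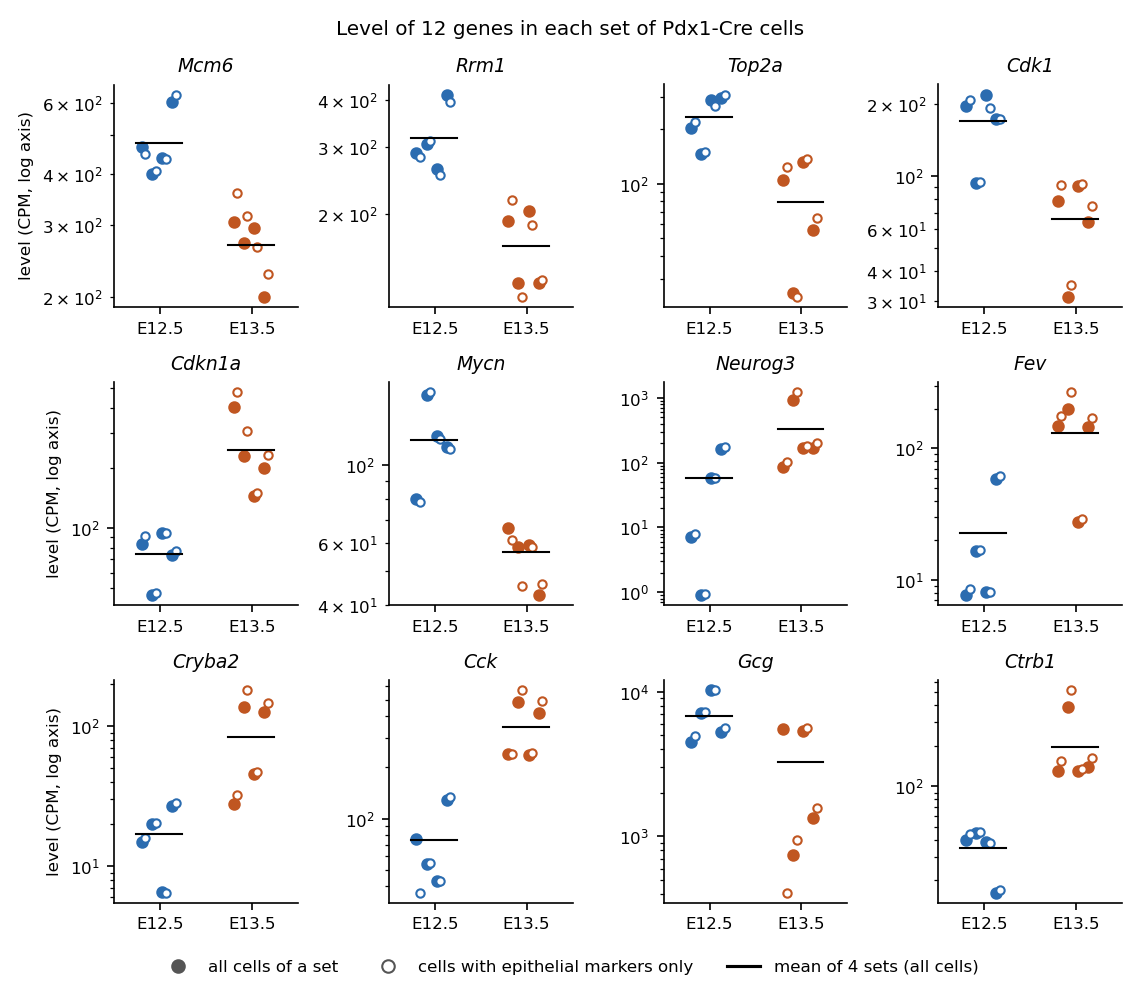
Normalized level (CPM, log axis) of 12 genes in each set, E12.5 and E13.5 side by side; each filled point is a set over all cells, each open point the same set over epithelial cells, and lines mark the mean of 4 sets. Cck, Cdkn1a and Ctrb1 lie higher in every E13.5 set, Mcm6 and Top2a lie lower, and Neurog3, Fev and Gcg overlap.

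Cell cycle genes were lower at E13.5. Mcm6 (chr1:128331590-128359664, minus strand, GRCm38), a subunit of the replicative helicase, stood at 468.3, 400.7, 438.0 and 604.6 CPM at E12.5 and at 305.9, 270.6, 294.9 and 199.4 CPM at E13.5 (log2 difference -0.84, SE 0.19; edgeR adjusted p = 0.277, DESeq2 adjusted p = 0.00846). Mcm3, of the same helicase, stood at 281.3, 220.7, 260.5 and 377.5 CPM and then 125.2, 166.2, 160.9 and 110.5 CPM (-1.02, SE 0.21). Every E13.5 set was lower than every E12.5 set for both genes. Cdc6, which loads the helicase, was at 67.1, 35.8, 46.02 and 67.4 CPM and then 22.4, 27.5, 27.1 and 19.7 CPM (-1.16). Rrm1, the large subunit of ribonucleotide reductase, was at 290.7, 305.9, 263.1 and 412.9 CPM and then 192.3, 131.7, 203.7 and 132.3 CPM (-0.95, SE 0.21). Top2a, topoisomerase II alpha, was at 204.1, 146.4, 289.4 and 297.9 CPM and then 104.9, 25.1, 131.7 and 55.9 CPM (-1.56, SE 0.45; DESeq2 adjusted p = 0.0442, and 0.0879 in epithelial cells), and E13.5 set 2 was the lowest. Cdk1, the mitotic kinase, was at 196.8, 93.1, 218.8 and 172.7 CPM and then 78.5, 31.1, 90.4 and 64.2 CPM (-1.37, SE 0.35). Cdc6, Rrm1, Top2a and Cdk1 did not overlap between the days either.

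The S phase list had 12 of 19 tested genes with every E13.5 set below every E12.5 set, against 3.53% of all genes. It had 10 DESeq2 calls, all lower (background 1.42%), and 0 positive differences of 19, with a median of -0.84. The G2 and mitosis list had 6 of 20 (Top2a, Cdk1, Ccnb1, Ccna2, Bub1b and Nusap1), 6 DESeq2 calls and a median of -0.96. The S phase list in epithelial cells had 10 of 19 below without overlap (background 2.96%) and 8 DESeq2 calls (background 1.11%). The G2 and mitosis list there had 3 of 20 (Top2a, Cdk1 and Nusap1) and 1 DESeq2 call. The endocrine share also differed between these sets (means of 15.7% and 37.5%), and its part in the differences was not tested. Mcm6 reached 100 CPM in 1 of 21 endocrine class cells at E12.5 and 6 of 38 at E13.5. In the other epithelial cells it did so in 36 of 42 without and 54 of 60 with the tip gene Cpa1 at E12.5, and in 24 of 28 and 24 of 26 at E13.5. Rrm1 did so in 6 of 21 and 11 of 38 endocrine class cells, in 31 of 42 and 49 of 60 of the others at E12.5 and in 14 of 28 and 22 of 26 at E13.5. Top2a was in 1 of 21 and 0 of 38 endocrine class cells, in 17 of 42 and 25 of 60 of the others at E12.5 and in 7 of 28 and 6 of 26 at E13.5. Mki67, a marker of cycling cells, was in 13 of 42 and 19 of 60 of the others at E12.5 and in 4 of 28 and 5 of 26 at E13.5. Outside the endocrine class the counts of cells were thus near each other for Mcm6 and smaller at E13.5 for Top2a and Mki67, with no test over these cells. In epithelial cells without endocrine markers the medians of the S phase and the G2 and mitosis list were -0.26 and -0.27. In each list 1 gene, Rrm1 and Nusap1, was lower without overlap there (background 2.03% of 13139 genes), and Mcm6 differed by -0.22 with overlapping sets. Top2a differed by -1.03 there, also overlapping. Among the cells without endocrine or other-type markers, whether epithelial or not, 2 S phase genes were lower without overlap (2.13% of 13681) and the median was -0.42. Here edgeR called 0 genes (415 higher and 495 lower at an unadjusted p under 0.05), and DESeq2 called 63 (0.429%) higher and 47 (0.320%) lower; 329 genes (2.40%) were higher without overlap.

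**Figure D4:**
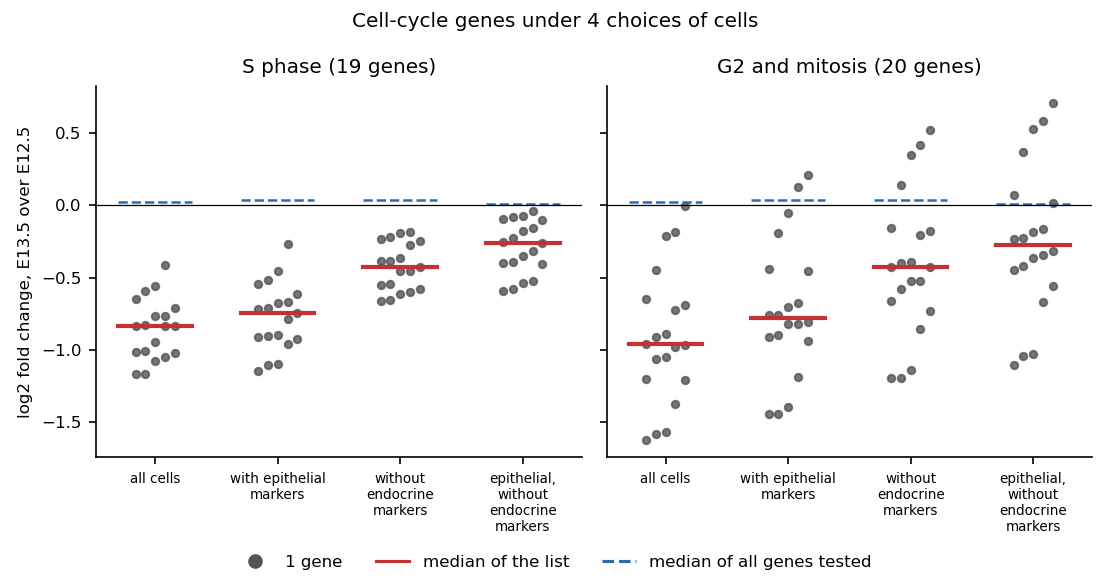
Log2 difference (E13.5 over E12.5, y axis) of the S phase and the G2 and mitosis genes in all cells, in cells with epithelial markers, in cells without endocrine markers and in epithelial cells without endocrine markers; each point is a gene, the solid line the median of the list and the dashed line that of all genes tested. The S phase median is -0.84 in all cells and -0.26 in epithelial cells without endocrine markers, which here means fewer than 3 of the 16.

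The promoters of these genes are shown because the lists differ in their motifs. The 150 bases before the start of each gene are from RefSeq (GRCm38.p6), 5′ to 3′ on the gene's strand, with matches in capitals: E2F motifs for Mcm6 and, on the other strand, Cdc6, an E2F motif and 2 TTTGAA for Cdk1, and TTCAAA, the reverse complement of TTTGAA, for Top2a. These starts are RefSeq's: by GENCODE, Cdc6 begins at 98907801, so that its window lies inside that gene model, and Cdk1 reaches to 69352938, inside its window. In Mcm6 the first stretch holds 2 overlapping matches and the second 1. The windows are chr1:128359706-128359855 for Mcm6 and chr10:69352913-69353062 for Cdk1, both minus strand, chr11:98908001-98908150 for Cdc6, plus strand, and chr11:99024190-99024339 for Top2a, minus strand.
Mcm6: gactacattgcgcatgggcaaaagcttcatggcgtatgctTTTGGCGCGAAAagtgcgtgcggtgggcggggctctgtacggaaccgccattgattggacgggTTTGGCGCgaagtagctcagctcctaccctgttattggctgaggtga
Cdc6: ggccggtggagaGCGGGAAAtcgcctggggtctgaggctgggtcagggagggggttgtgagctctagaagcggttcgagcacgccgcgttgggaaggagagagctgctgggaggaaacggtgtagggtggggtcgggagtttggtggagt
Cdk1: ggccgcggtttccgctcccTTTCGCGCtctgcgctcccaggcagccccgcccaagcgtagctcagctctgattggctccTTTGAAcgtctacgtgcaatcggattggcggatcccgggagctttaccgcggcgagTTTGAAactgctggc
Top2a: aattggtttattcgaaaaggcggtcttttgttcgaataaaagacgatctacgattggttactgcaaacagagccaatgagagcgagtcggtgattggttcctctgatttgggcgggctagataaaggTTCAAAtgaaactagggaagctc
Over windows from 250 bases before to 50 after the start, an E2F motif (TTTCCCGC, TTTCGCGC, TTTGCCGC or TTTGGCGC, either strand) was in 7 of 16 S phase genes with a window, or 43.8%, in 1 of 17 G2 and mitosis genes, or 5.88%, and in 704 of 27025 genes in all, or 2.6%. The letters TTTGAA, on either strand, the element of cell cycle genes homology region, were in 12 of 17 G2 and mitosis genes, or 70.6%, in 2 of 16 S phase genes and in 5466 of 27025, or 20.2%. A match is a run of letters and not a bound site.

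Cdkn1a, p21, a cell cycle inhibitor also named in the endocrine progenitor list, stood at 82.9, 46.4, 94.5 and 73.6 CPM at E12.5 and at 403.3, 230.0, 144.8 and 200.1 CPM at E13.5 (log2 difference 1.71, SE 0.33; edgeR adjusted p = 0.25, DESeq2 adjusted p = 0.000455). Every E13.5 set was higher. The difference was 1.90 in epithelial cells and 1.46 in epithelial cells without endocrine markers, without overlap in each. That last group had fewer than 3 of the 16 markers and still held Neurog3-positive cells, since 17 of 26 at E13.5 were in the class. By cell, Cdkn1a was present in 26.4% ± 8.36 (SD, n = 4 sets) and 38.1% ± 5.25 (SD, n = 4 sets) of cells (two-sided exact permutation p = 0.0571, adjusted 0.274 over 24 genes). These shares overlapped, with 33.3% in E12.5 set 3 and 31.25% in E13.5 set 2. The proto-oncogene Mycn was at 80.0, 158.8, 121.3 and 113.2 CPM and then 66.2, 58.5, 59.3 and 42.6 CPM (-1.06, SE 0.24). DNA methyltransferase Dnmt1 and the helicase Hells, both chosen after their values were seen, differed by -1.37 and -1.42 (SE 0.24 and 0.22).

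Among tip genes, Ctrb1 was higher in every E13.5 set and Cpa1 overlapped. Ctrb1 (chr8:111686519-111691010, minus strand, GRCm38), which encodes chymotrypsinogen B, stood at 40.1, 44.9, 38.4 and 16.2 CPM at E12.5 and at 130.6, 391.3, 130.3 and 139.4 CPM at E13.5 (log2 difference 2.51, SE 0.45; edgeR adjusted p = 0.25, DESeq2 adjusted p = 6.2e-05). In epithelial cells without endocrine markers its level was 49.9, 55.6, 45.7 and 20.5 CPM and then 240.7, 1084, 165.0 and 361.5 CPM (3.44, SE 0.57). The share of cells with Ctrb1 at 100 CPM did not show this, at 13.7% ± 9.99 (SD, n = 4 sets) and 12.6% ± 5.27 (SD, n = 4 sets; two-sided exact permutation p = 0.886). These were 13 of 131 and 13 of 108 cells, all but 1 of them with Cpa1. The cells with most Ctrb1 were higher at E13.5: 0 of 131 reached 1000 CPM at E12.5, and 5 of 108 did at E13.5, with highest cells of 816.9 and 7342 CPM. The cell with most Ctrb1 held 41.6, 55.1, 59.5 and 92.3% of the counts of E13.5 sets 1 to 4, and 25.03 to 51.7% of those of the E12.5 sets, so the set levels rest on few cells. In E13.5 set 2 the highest pair of cells stood at 7342 and 4442 CPM.

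Cpa1, carboxypeptidase A1 and a tip marker, overlapped: 2081, 428.3, 1201 and 1329 CPM at E12.5 and 1548, 1079, 1198 and 1014 CPM at E13.5 (log2 difference -0.06, SE 0.38). Its direction turned in epithelial cells (0.10). Clps (colipase) differed by 0.35 in all cells and by 1.196 in epithelial cells without endocrine markers. Of the 11 digestive enzymes tested, 1 (Ctrb1) was higher without overlap (background 3.35%) and 9 had positive differences, with a median of 0.36. In epithelial cells without endocrine markers, 10 of 10 tested had positive differences, 5 of them at an unadjusted p under 0.05 against 2.24% of all 13139 genes (3.57% were lower at that p, and 2.08% higher without overlap), and the median was 1.21 beside 0.01. None of these genes passed edgeR's adjusted p. Ptf1a, the tip and acinar factor, differed by -0.85 (SE 0.52), overlapping, and was in 18 of 131 and 7 of 108 cells.

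Sox9 was lower at E13.5: 738.9, 830.6, 763.8 and 789.0 CPM and then 528.5, 354.3, 719.8 and 473.4 CPM (-0.59), without overlap. Its share of cells was 75.0, 71.4, 79.2 and 77.8% and then 62.5, 46.9, 65 and 45.8% (exact permutation p = 0.0286, adjusted 0.171). In epithelial cells the means were 79.4% and 63.7%, and the p was 0.0571. Of 16 trunk and duct genes tested, Sox9 was the only one lower without overlap, near the share of 3.53% of all genes, and the median was -0.26. In epithelial cells without endocrine markers the list had 11 positive and 4 negative differences of 15 and a median of 0.13, with 0 genes lower without overlap. There Sox9 was in 41 of 42 cells without and 58 of 60 with Cpa1 at E12.5, and in 27 of 28 and 24 of 26 at E13.5.

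For 1 of 4 pairs of tip and trunk genes, Cpa1 and Nkx6-1, the share of cells with both was lower in every E13.5 set. Among cells with Cpa1 or Nkx6-1 (a trunk homeobox factor) at 100 CPM, the share with both was 15.4, 33.3, 9.38 and 8.70% in the E12.5 sets and 5.26, 0, 6.25 and 0% in the E13.5 sets. This was 11 of 87 and 2 of 60 cells, a mean of 16.7% ± 11.49 (SD, n = 4 sets) and 2.88% ± 3.35 (SD, n = 4 sets), without overlap (two-sided exact permutation p = 0.0286, adjusted 0.114 over 4 pairs). In epithelial cells it was 11 of 86 and 2 of 60. Cpa1 alone was in 54.8% ± 17.9 (SD, n = 4 sets) and 30% ± 28.7 (SD, n = 4 sets) of cells (two-sided exact permutation p = 0.2, adjusted 0.4 over 24 genes), 68 of 131 and 29 of 108. Both E13.5 sets at 0%, sets 2 and 4, held 2 and 3 Cpa1-positive cells. Cpa1 and Sox9 together had means of 55.1% and 35.1% (exact permutation p = 0.171), and Ptf1a and Nkx6-1 were together in 1 of 47 and 0 of 40 cells. None passed after adjustment, which needs most of the 4 pairs at the smallest possible p.

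**Figure D5:**
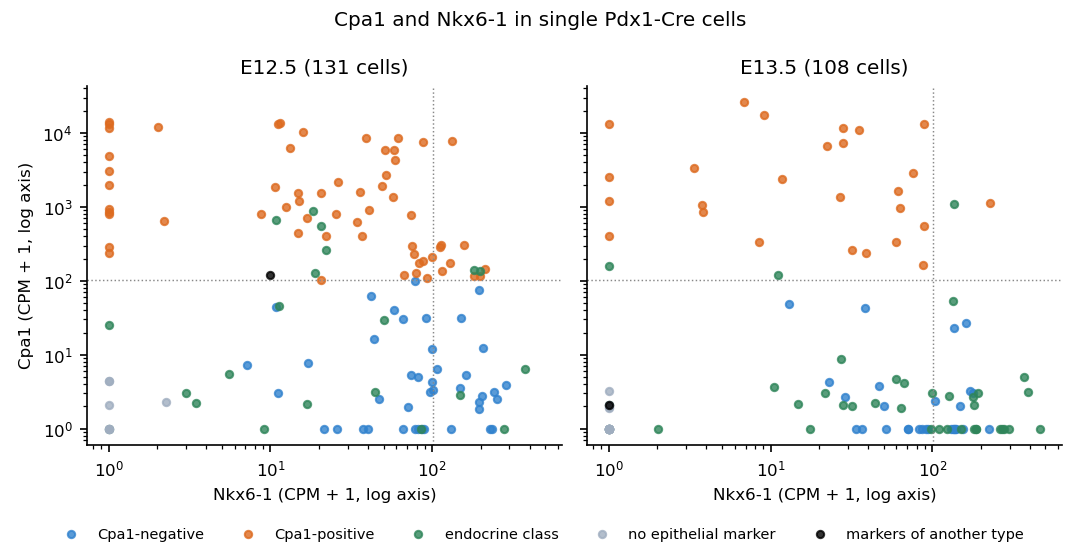
Nkx6-1 (x axis) against Cpa1 (y axis) in each cell, in CPM + 1 on log axes, with a panel for each day, coloured by class; dotted lines mark 100 CPM. The upper right corner holds 11 cells at E12.5 and 2 at E13.5.

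Within sets, cells with Cpa1 at 100 CPM were compared with those below it. Both came from cells with fewer than 3 endocrine markers and fewer than 4 of any other type. The sets with at least 5 cells in each class entered: sets 1, 3 and 4 at E12.5 and set 1 at E13.5. No calls are given for E13.5 from that 1 set. At E12.5, 9 genes were higher with Cpa1 (0.0555% of 16226) and 2 lower (0.0123%), by edgeR's adjusted p under 0.05. This count of 11 was 25 without set 1, 80 without set 3 and 1 without set 4. Clps stood at 14.8, 30.3 and 14.8 CPM in the Cpa1-negative class and at 829.9, 897.2 and 338.3 CPM in the Cpa1-positive class (log2 difference 5.07, SE 0.29; edgeR adjusted p = 0.00545). Other genes higher with Cpa1 were Serpina6, P2rx1, Xbp1, Gcat, Ifitm3, Cbs and Ctrb1. Xbp1, a factor of the secretory pathway, differed by 1.86 (SE 0.17; edgeR adjusted p = 0.0307). The 2 genes lower with Cpa1, Gap43 and Tagln3, are neuronal and were not called in epithelial cells, where 15 were higher (0.0965% of 15538) and 4 lower (0.0257%). The extra genes there include Mest (log2 difference 2.91, SE 0.21) and Myc (4.84, SE 0.37) higher, and Fgfr2 (-1.46, SE 0.17) and Anxa2 (-2.66, SE 0.30) lower. With 2 cells in each class as the minimum, all 8 sets entered, with 2 or 3 Cpa1-positive cells in E13.5 sets 2 and 4. Cells without epithelial markers entered too. E13.5 sets 1, 2 and 4 held 11, 13 and 10 Cpa1-negative cells, 8, 9 and 7 of them epithelial. Here edgeR called 5 genes higher with Cpa1 (0.0323% of 15487) and 1 lower (0.00646%) at E12.5, and 15 higher (0.0969%) and 8 lower (0.0517%) at E13.5. Xbp1 differed by 1.88 and 1.92 on the 2 days (edgeR adjusted p = 0.0415 and 0.0192). For the change of the class difference between days, 0 genes (0%) were called by edgeR, and 257 had an unadjusted p under 0.05.

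In the fit over all 8 sets, acinar transcription factors had positive differences with Cpa1 in 8 of 8 genes on both days (median 3.98 at E12.5, 2.63 at E13.5), and trunk and duct genes in 4 and 3 of 17 (medians -0.87 and -1.29). S phase genes were positive in 17 of 19 at E12.5 and 19 of 19 at E13.5, and G2 and mitosis genes in 20 of 20 and 6 of 20. Over all genes tested, 8970 of 15487 were positive at E12.5 and 6440 of 15487 at E13.5. In epithelial cells of the E12.5 sets with 5 cells a class, the S phase count was 9 of 19 and the G2 and mitosis count 6 of 20. There 8125 of 15538 genes were positive. Digestive enzymes were positive in 10 of 12 and 11 of 12 genes. Cpa1 chose the classes and entered no count.

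Some signalling and basement membrane genes were lower without overlap. In all cells Fgfr2, the receptor for the mesenchymal growth factor Fgf10, was at 89.8, 171.9, 116.5 and 259.9 CPM and then 72.4, 66.5, 73.6 and 67.4 CPM (log2 difference -1.19, SE 0.30). Notch3, a Notch receptor, was at 20.4, 44.3, 21.7 and 39.8 CPM and then 11.9, 9.73, 9.71 and 9.78 CPM (-1.61, SE 0.37; DESeq2 adjusted p = 9.3e-04), and Nrarp, a Notch target and feedback inhibitor, differed by -1.26 (SE 0.47). Every E13.5 set was below every E12.5 set for these genes. Nrarp overlapped in epithelial cells. In epithelial cells without endocrine markers, the difference was -0.56 for Fgfr2, with overlap, and -0.94 for Notch3, without. Against 3.53% of all genes, the Notch list had 2 of 16 lower without overlap and a median of -0.22, and the FGF and ERK list 1 of 18 (Fgfr2), near that share, and a median of -0.66. In epithelial cells without endocrine markers the Notch list had 3 genes higher without overlap (Notch2, Heyl and Mfng) and 1 lower. Of all 13139 genes there, 2.08% were higher and 2.03% lower without overlap. The list had 8 positive and 8 negative differences. Basement membrane and integrin genes had 2 of 16, Lamc1 (-1.45) and Itgb4 (-1.79), both overlapping in epithelial cells, and a median of -0.62. Of 18 epithelial adhesion genes, Cldn4 was higher (background 3.35%) and Tjp1 lower (background 3.53%) without overlap, both near those shares. The list had 10 positive and 8 negative differences and a median of 0.04. Glycolysis genes had 2 of 21, Pkm and Slc2a1 (-1.27), and a median of -0.55. Tead2, a partner of YAP, was at 177.6, 166.4, 163.7 and 179.6 CPM and then 98.3, 79.3, 138.9 and 67.2 CPM (-0.84, SE 0.22). Frem2, an extracellular matrix protein gene, and Ids, a lysosomal sulfatase gene, both chosen after their values were seen, differed by -1.76 and 1.62 (SE 0.38 and 0.28). Genes of the unfolded protein response, of cholesterol synthesis and imprinted genes had medians of -0.02, 0.16 and -0.05, with 1, 0 and 0 lower without overlap of 22, 16 and 20.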

How the data were processed

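The authors deposited whole-number read counts per gene and cell from Smart-seq2 libraries, with no normalization, for 40824 genes and 92 ERCC spike-ins; the spike-ins were left out. Per the submitters' processing notes, TopHat2 2.1.0, Bowtie2 and HTSeq 0.6.0 were used with the mm10 genome; their roles and the gene annotation are not given in the sources used here. The deposited table holds 1591 columns of Smart-seq2 cells outside the Pdx1-Cre lineage, not used here. No 2 cells had identical counts. Since no molecular identifiers were used, reads copied by PCR are not separate molecules.

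All cells of 1 set were added up gene by gene, and the sums were tested with edgeR 4.0.16 in R 4.3.3 (TMM, filterByExpr, quasi-likelihood F test, Benjamini-Hochberg adjusted p under 0.05), with DESeq2 1.42.0 and limma 3.58.1 (pseudocount of 1 CPM) as alternatives. Standard errors are the log2 difference over the root of F. Shares of cells per set were compared with two-sided exact permutation tests over the 70 splits of 4 against 4 sets, adjusted over 24 genes, 3 classes or 4 pairs. Scripts were tested on simulated data, where DESeq2 called more unchanged genes than edgeR, 46 against 8 for all cells. Of simulated log2 changes of 1, 2 and 3 there, edgeR called 9.38, 43.1 and 85% and DESeq2 10.4, 50.7 and 83.3%. Many changes of the smaller sizes are thus missed by both. Same-numbered sets did not pair. The rule for naming genes took the largest changes that passed the test, reached a mean of 50 CPM on 1 day and had sets that do not overlap, and added the list members; no gene passed between the days, so the named genes are list members, except where a choice after seeing values is stated. The members and the lists were chosen with earlier results of these data known. Gene positions are from GENCODE (GRCm38, the build mm10). Alternatives added after seeing the data were the epithelial cells, the thinning, the endocrine class without Gcg and the fit on sets with 2 cells in each Cpa1 class. Some genes are not reported here.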

Additional observations from a re-analysis of the deposited data

Results flagged for a closer look

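In 8 of 116 groups of 4 sets, 1 set lay far from the other 3 by Dixon's criterion, which chance meets in about 1 in 20 groups. For shares of cells at 100 CPM or more, these were Ctrb1 in E12.5 set 2 (28.57%, 2 of its 7 cells), Gcg in E13.5 set 2 (56.25%) and Mki67 in E13.5 set 3 (25%). For levels, they were Ctrb1 in E13.5 set 2 (391.3 CPM), Neurog3 in E13.5 set 2 (913.0 CPM), Mki67 in E12.5 set 2 (16.67 CPM), Notch3 in E13.5 set 1 (11.95 CPM) and Pax4 in E12.5 set 4 (78.78 CPM). E13.5 set 2 holds 3 of the 8, and 7 of its 32 cells lacked epithelial markers. Gcg in those 7 cells ran from 81.4 to 152.0 CPM, and the lowest endocrine class cell of the set had 40.96 CPM. Of the 7 cells, 4 were at 100 CPM or more. Every cell of the set had Gcg at 34.47 CPM or more, and the median over its 15 cells outside the endocrine class was 86.1 CPM, against 0 to 9.95 CPM in the other sets; Gcg is also 1 of the markers of that class, which held 17 of 32 cells of the set with it and 15 without it.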

How the results depend on the processing

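Between the days edgeR called 0 genes in all cells and in cells without endocrine or other-type markers under every alternative run with edgeR or limma except 1: the count in all cells was 0 to 9 when 1 set was left out, with 9 without E13.5 set 3. DESeq2 called 485 genes in all cells and 110 without the marked cells, and 378 and 77 after cells lacking epithelial markers were left out. Of single results, 29 passed with DESeq2, 22 with DESeq2 in epithelial cells and 3 without E13.5 set 3. For the Cpa1 classes at E12.5 the count of 11 became 64 without a filter, 488 with DESeq2, 2 with Cpa1 at 1000 CPM, 19 in epithelial cells and 6 with sets of 2 cells a class, and ranged from 1 (without set 4) to 80 (without set 3), with 25 without set 1. At E13.5, where 1 set entered and its spread was borrowed from E12.5, the count of 3 became 71, 953, 5 and 23 without a filter, with DESeq2, with Cpa1 at 1000 CPM and with sets of 2 cells a class, and ranged from 3 to 116 without 1 E12.5 set (60 without set 1, 116 without set 3). The change of the class difference gave 2 genes with Cpa1 at 1000 CPM. The causes were not tested.

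Cpa1's log2 difference turned positive with limma (0.143), with the replicate block (0.146) and in epithelial cells (0.0966, DESeq2 0.0958), and ran from -0.35 to 0.29 without 1 set. The Ctrb1 share difference turned positive at 500 CPM (7.604 percentage points) and in epithelial cells (0.197), with -3.64 to 3.80 without 1 set. The endocrine class difference of 21.8 percentage points was 20.3 with Gcg left out of the markers and 20.5 from thinned counts. At 500 CPM the Gcg share difference was -2.88 and that of Mki67 0.0868. Same-numbered sets correlated at 0.0364, -0.0956, 0.0982 and 0.0862 in all cells and at 0.0907, -0.0735, 0.19 and 0.154 in cells without endocrine or other-type markers, so not every pair exceeded 0.1 and the numbers were not taken to pair sets, and the replicate block gave 0 genes in both comparisons. A class by Ptf1a was not run, since 1 set had enough cells. Set 2 of E12.5, with 7 cells, limits every share of that day.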

Other observations

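Other days of the lineage, on a scale set over 19 sets, gave the following levels, with no test. Cdkn1a, the p21 gene, stood at 141.6 to 241.3 CPM in the 4 sets of E10.5 and E11.5, at 45.9 to 93.2 CPM at E12.5, at 142.5 to 393.6 CPM at E13.5 and at 126.3 to 400.7 CPM at E14.5, so that the E12.5 sets were the low ones among these days. Neurog3 stood at 77.9 and 78.5 CPM in the E10.5 sets and at 170.1 and 122.0 CPM in the E11.5 sets, and 3 of the 4 E12.5 sets were lower than each of these, at 0.901, 6.88 and 57.5 CPM. Mcm6, the helicase subunit gene, stood at 294.3 to 362.2 CPM at E10.5 and E11.5, below the E12.5 sets (396.8 to 587.1 CPM) and mostly above the E13.5 sets (192.4 to 298.5 CPM). Ctrb1, the chymotrypsinogen gene, ranged from 0.896 to 6.13 CPM at E10.5 and E11.5, from 603.6 to 2277 CPM at E14.5 and from 13170 to 50540 CPM at E15.5.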
